A study of Mus musculus with 24 samples.

Results

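The 10 genes described here mark the endothelial cells that line islet capillaries: Pecam1, Kdr, Flt1, Cdh5, Tek, Tie1, Eng, Vwf, Esam and Plvap. The rule that picks them uses gene names and no measured value, though the list was drawn up with earlier results of these arrays known. They make up 10 of the 22975 genes that could be tested. All 10 were measured, and the probe that stood for each was well above background on all 24 arrays. Islets came from males of C57BL6/J (BL6 here) and of C57BLKs/J (BLKS here), which are inbred and were 8 weeks of age when the diets began. In each strain 4 mice received chow with 18% of kcal from fat, 4 received a high-fat diet (HFD) with 42% of kcal from fat, and 4 received the HFD with 140 mg of pioglitazone per kg of diet. Pioglitazone is a drug that activates PPAR-gamma, a nuclear receptor. Per-sample labels state 12 weeks of diet and the series design states 16 weeks, and these could not be reconciled. Each array held the RNA of 1 mouse, and every group was made of different animals. The labels name no transgene or deletion in any group. Whole islets were freed with collagenase, so each value is an average over endocrine, endothelial and all other cells in the preparation, and fewer endothelial cells cannot be told apart from less RNA per endothelial cell.

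Islets are threaded by a dense network of fenestrated capillaries, which grows and is kept under vascular endothelial growth factor (VEGF) made by the beta cells. Endothelial cells read VEGF through the receptor tyrosine kinases encoded by Kdr and Flt1 and read angiopoietins through Tek, with Tie1 as its partner receptor. Cdh5, Pecam1 and Esam encode proteins of the junctions between endothelial cells. Plvap encodes the diaphragm protein of fenestrae and caveolae, Eng a co-receptor for ligands of the TGF-beta family, and Vwf the clotting protein that is stored in endothelial granules and in platelets.

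A level is the log2 processed spot intensity minus the 75th percentile of its array, so that 0 is the intensity at that percentile. Levels of different genes come from different probes and were not compared with each other. The 75th percentile ranged from 217.6 to 402.4 intensity units over the arrays, and 50.2% to 59.3% of the spots were well above background. Differences were tested with limma on all 24 arrays, and adjusted p means Benjamini-Hochberg adjustment over the 22975 genes, with 0.05 as the threshold. Errors of differences are standard errors (SE), and errors of group levels are SD with n = 4. The number of arrays, 4 per group, limits the precision. Arrays with many transcripts of other cells were present in both strains: the lymphocyte list, on a log2 scale centred on all arrays, exceeded 1 on 7 arrays, namely mouse 3 of BL6 chow, mouse 4 of BL6 HFD, mice 2 and 3 of BL6 HFD with pioglitazone, mouse 2 of BLKS chow, mouse 3 of BLKS HFD and mouse 1 of BLKS HFD with pioglitazone. No slide held the same diet of both strains, so slide and strain cannot be told apart within a diet. In BL6, chow and HFD lay on slide 1, and HFD with pioglitazone on slides 2 and 4. In BLKS, chow lay on slides 2 and 4, and both HFD groups on slide 3. Only HFD against chow in BL6 and pioglitazone on HFD in BLKS thus compare groups on 1 slide. In the other diet comparisons slide and treatment cannot be told apart.

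Strain was the factor that separated these genes. Averaged over the 3 diets, Cdh5 and Pecam1 were higher in BLKS islets, Kdr and Flt1 were lower, and the other 6 genes did not pass the test. Of all genes tested, 64.7% passed in that comparison, 30.1% as higher in BLKS and 34.5% as lower, so 4 of 10 endothelial markers is a smaller share than among all genes. The median difference of the 10 genes was -0.14 on the log2 scale, against -0.05 for all genes. Within single diets, 2 of 10 passed on chow (41.6% of all genes), 2 of 10 on HFD (49.9%) and 3 of 10 on HFD with pioglitazone (45.8%). None of the 10 passed in any of the 6 comparisons of diets within a strain.

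**Figure D1:**
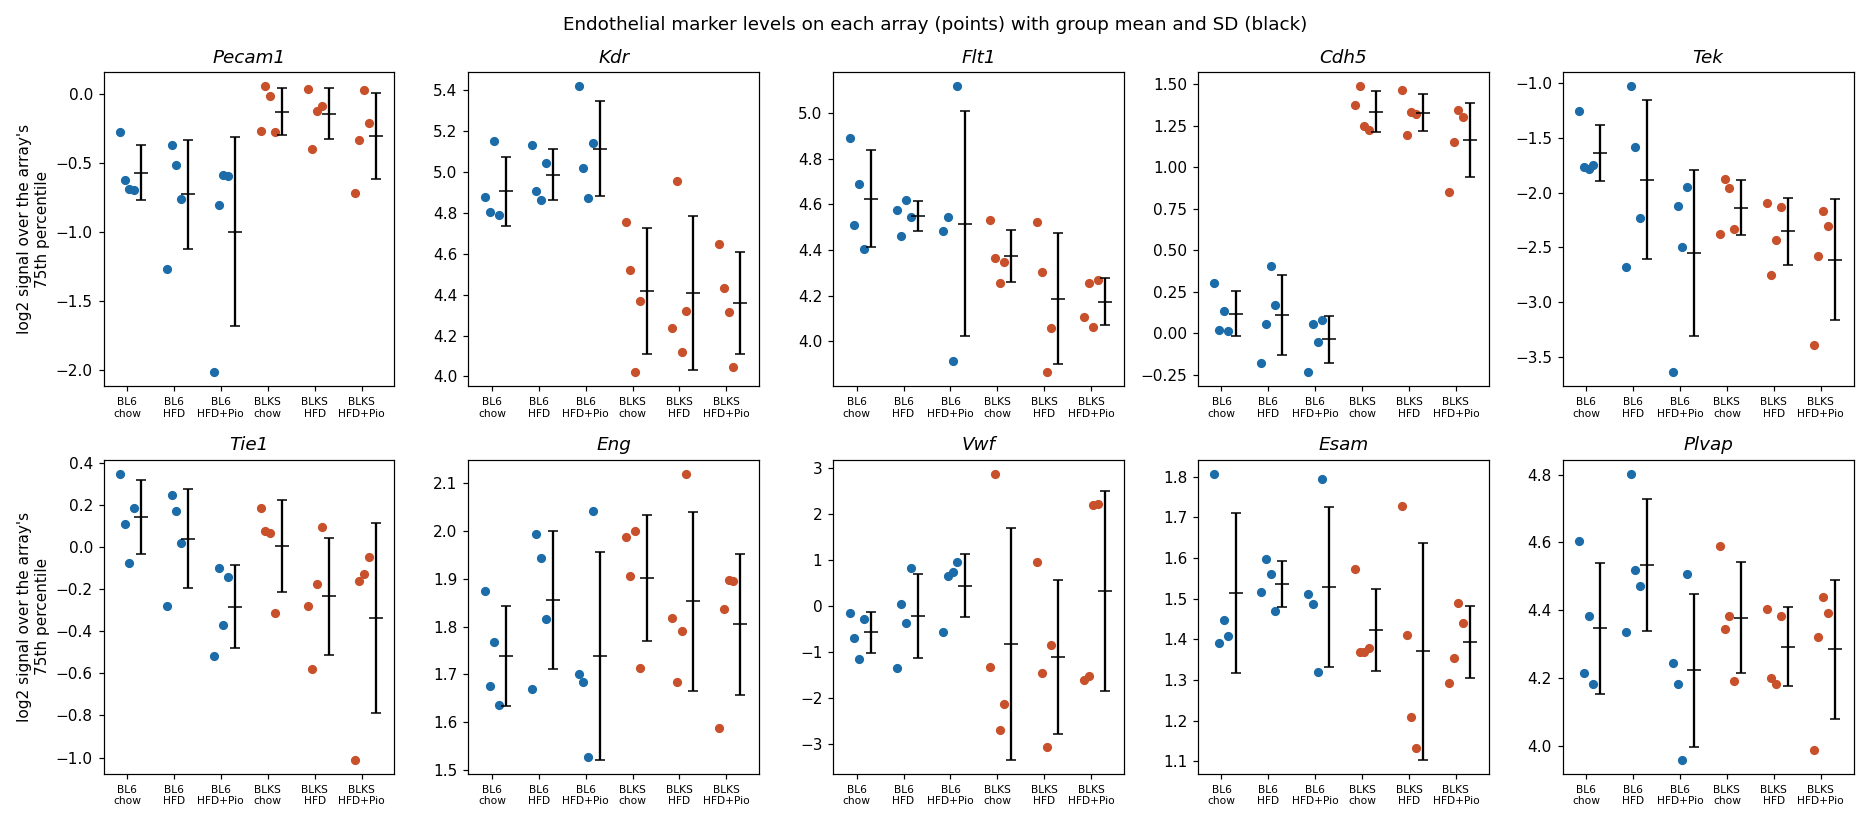
Level of each endothelial marker (y axis, log2 intensity relative to the 75th percentile of the array) on each of 24 arrays, by strain and diet (x axis). Points are mice (blue BL6, orange BLKS) and black marks give the group mean with SD, n = 4. The 12 BLKS points of Cdh5 lie above all 12 BL6 points, and Vwf spreads most within the BLKS groups.

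Cdh5 encodes VE-cadherin, the adhesive protein of endothelial adherens junctions. It showed the clearest difference between the strains among the 10 genes. In BL6 mice 1 to 4 it stood at 0.30, 0.02, 0.13 and 0.01 on chow, at -0.18, 0.05, 0.40 and 0.17 on HFD, and at -0.23, 0.06, -0.06 and 0.08 on HFD with pioglitazone. Across BLKS mice the levels were 1.38, 1.49, 1.25 and 1.23 on chow, at 1.47, 1.20, 1.33 and 1.32 on HFD, and at 0.85, 1.15, 1.35 and 1.30 on HFD with pioglitazone. The lowest BLKS array lay above the highest BL6 array, so the strains did not overlap on any diet. The difference was 1.22 ± 0.12 (log2) on chow, 1.22 ± 0.12 on HFD and 1.20 ± 0.12 with pioglitazone. Over the diets it was 1.21 ± 0.07, or 2.32-fold higher in BLKS (limma, 95% interval 1.06 to 1.36, adjusted p = 4.62e-12). The same probe gave an SD within groups of 0.17, at the 34.2th percentile among all genes. Cdh5 was read by 1 probe of 60 bases on chromosome 8 (mm9 chr8:106668159-106668218, plus strand). Its first 30 bases are shown to identify the only probe behind this result.
Cdh5 probe, first 30 bases: acttattataagactctagttctcacagac

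Pecam1 encodes CD31, an adhesion protein at endothelial contacts that platelets and leukocytes also carry. In BL6 mice it stood at -0.28, -0.63, -0.69 and -0.69 on chow, at -1.27, -0.37, -0.51 and -0.76 on HFD, and at -2.02, -0.80, -0.59 and -0.59 with pioglitazone. The BLKS mice gave -0.27, 0.06, -0.02 and -0.28 on chow, at 0.04, -0.40, -0.12 and -0.09 on HFD, and at -0.72, -0.33, 0.03 and -0.21 with pioglitazone. The strains overlapped on every diet, and the lowest values were those of mouse 1 of BL6 on HFD with pioglitazone and mouse 1 of BL6 on HFD. Over the diets Pecam1 was 0.57 ± 0.15 (log2) higher in BLKS, or 1.49-fold (limma, adjusted p = 0.00177). The difference was 0.44 ± 0.25 on chow (adjusted p = 0.173), 0.58 ± 0.25 on HFD (adjusted p = 0.0607) and 0.69 ± 0.25 with pioglitazone (adjusted p = 0.03). Without mouse 1 of BL6 on HFD with pioglitazone the last value was 0.35 (adjusted p = 0.144), and the call was also lost without mouse 2, 3 or 4 of BLKS on that diet, with 0.70 (adjusted p = 0.0514), 0.58 (adjusted p = 0.0955) and 0.66 (adjusted p = 0.0653). The Pecam1 probe lies on chromosome 11 (mm9 chr11:106540864-106540923, minus strand) and is shown whole because it was the only one.
Pecam1 probe: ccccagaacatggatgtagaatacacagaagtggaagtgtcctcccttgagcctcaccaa

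Esam, also a junction gene, encodes an adhesion molecule of endothelial tight junctions and platelets. Its 24 levels lay between 1.13 and 1.81, and the group means between 1.37 ± 0.27 on HFD in BLKS and 1.54 ± 0.06 on HFD in BL6. It did not pass in any comparison in the fit reported, where the strain difference over the diets was -0.13 ± 0.07 (log2, 95% interval -0.28 to 0.01, adjusted p = 0.107).

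Kdr encodes VEGF receptor 2, the main signalling receptor for VEGF. In BL6 mice it stood at 4.88, 4.80, 5.15 and 4.79 on chow, at 5.13, 4.91, 4.86 and 5.04 on HFD, and at 5.42, 5.02, 4.87 and 5.14 with pioglitazone. Levels in BLKS mice were 4.76, 4.52, 4.02 and 4.37 on chow, at 4.24, 4.96, 4.12 and 4.32 on HFD, and at 4.65, 4.43, 4.31 and 4.05 with pioglitazone. Every BLKS array was lower than every BL6 array on chow and with pioglitazone, and on HFD mouse 2 of BLKS overlapped the BL6 range. Over the diets Kdr was 1.52-fold lower in BLKS, with a log2 difference of -0.61 ± 0.10 (limma, adjusted p = 2.71e-05). The difference was -0.49 ± 0.18 on chow (adjusted p = 0.032), -0.58 ± 0.18 on HFD (adjusted p = 0.0103) and -0.75 ± 0.18 with pioglitazone (adjusted p = 0.00155). The chow difference no longer passed without mouse 1 (-0.50, adjusted p = 0.0524) or mouse 3 of BL6 (-0.41, adjusted p = 0.102), or without mouse 3 (-0.36, adjusted p = 0.13) or mouse 4 of BLKS (-0.47, adjusted p = 0.066).

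A second Kdr probe lay on the same strand of chromosome 5, and on most arrays it was read in 10 spots, whose SD was between 0.019 and 0.104 (log2) on an array. It was also lower in BLKS over the diets, by a log2 difference of -0.34 ± 0.09 (limma on all probes, adjusted p = 0.00257). Within diets its difference was -0.39 ± 0.16 on chow (adjusted p = 0.0533), -0.24 ± 0.16 on HFD (adjusted p = 0.222) and -0.40 ± 0.16 with pioglitazone (adjusted p = 0.0449), so the Kdr calls on chow and on HFD rest on the brighter probe. The brighter probe used for the gene (mm9 chr5:76330395-76330454) and the dimmer one (mm9 chr5:76329309-76329368) differed in another way. With group means removed, the dimmer probe followed the mean of the 8 other members that leave out Vwf (Pearson r = 0.66 over 24 arrays), whereas the brighter probe went the other way (r = -0.39). The Pearson r of the probes with each other over the 24 arrays was 0.38, with group means left in, so the strain difference enters it. Which of them reads Kdr transcript more faithfully was not tested. The first 30 bases of both are given because the probes of 1 gene disagreed within groups while sharing the direction between strains.
Kdr brighter probe, first 30 bases: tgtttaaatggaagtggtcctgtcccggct
Kdr dimmer probe, first 30 bases: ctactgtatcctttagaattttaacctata

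Flt1 encodes VEGF receptor 1, which binds VEGF tightly and also exists as a secreted form. Its BL6 levels were 4.89, 4.51, 4.69 and 4.41 on chow, at 4.58, 4.46, 4.62 and 4.55 on HFD, and at 4.49, 4.54, 3.91 and 5.12 with pioglitazone. In BLKS mice it stood at 4.53, 4.37, 4.26 and 4.35 on chow, at 4.52, 4.30, 3.87 and 4.06 on HFD, and at 4.10, 4.25, 4.06 and 4.27 with pioglitazone. The groups overlapped on every diet. Over the diets Flt1 was 1.25-fold lower in BLKS, with a log2 difference of -0.32 ± 0.10 (limma, adjusted p = 0.0102), and no single diet passed. A second probe gave a difference of -0.30 ± 0.10 (limma on all probes, adjusted p = 0.00898) and followed the first over the arrays (r = 0.79, group means left in). Another was well above background on 0 arrays. The probe used lies on the minus strand of chromosome 5 (mm9 chr5:148373791-148373850), and its first 30 bases follow.
Flt1 probe, first 30 bases: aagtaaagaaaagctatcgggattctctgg

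The promoters of these VEGF receptor genes are shown because both genes were lower in BLKS. They are the 250 bases before the annotated start, 5′ to 3′ on the gene's strand, from RefSeq on GRCm38.p6, a table that held 5 of the 10 genes (Kdr, Flt1, Tek, Tie1 and Eng). Capitals mark AGGAAG, a core that ETS factors of endothelial cells bind, GGGCGG, the GC box, and TATAAA, the TATA box, searched on both strands with no overlap between matches. Kdr is at chr5:75978456-75978705 and Flt1 at chr5:147726012-147726261, both on the minus strand.
Kdr promoter: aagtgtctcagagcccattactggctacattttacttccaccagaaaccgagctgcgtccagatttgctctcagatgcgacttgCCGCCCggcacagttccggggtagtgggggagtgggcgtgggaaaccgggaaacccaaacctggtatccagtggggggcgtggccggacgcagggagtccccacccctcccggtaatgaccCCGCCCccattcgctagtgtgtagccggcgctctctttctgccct
Flt1 promoter: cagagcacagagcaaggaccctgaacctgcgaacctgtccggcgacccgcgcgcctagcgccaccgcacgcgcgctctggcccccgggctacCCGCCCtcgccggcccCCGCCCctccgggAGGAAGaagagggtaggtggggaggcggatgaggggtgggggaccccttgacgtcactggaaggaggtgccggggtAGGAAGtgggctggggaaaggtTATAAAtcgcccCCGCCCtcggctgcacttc
The Kdr window held 2 GC boxes, 0 ETS cores and 0 TATA boxes. The Flt1 window held 3 GC boxes, 2 ETS cores and 1 TATA box that began 31 bases before the start. Among 32851 promoters of the same length, 29.5% held the ETS core, 32.7% the GC box and 12.4% the TATA box. The ETS core was also found in Tie1 (1 copy) and Eng (2 copies), and none of the 3 motifs was found in Tek. These matches describe the reference sequence only, since the promoters of these mice were not sequenced here.

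Tek encodes the angiopoietin receptor Tie2. BL6 mice gave -1.25, -1.76, -1.78 and -1.75 on chow, at -2.68, -1.03, -1.58 and -2.23 on HFD, and at -3.64, -2.12, -2.50 and -1.95 with pioglitazone. For BLKS the levels were -2.37, -1.88, -1.96 and -2.34 on chow, at -2.09, -2.76, -2.44 and -2.13 on HFD, and at -3.40, -2.58, -2.17 and -2.31 with pioglitazone. All 4 BL6 arrays with pioglitazone were lower than all 4 BL6 chow arrays, and mouse 1 was the lowest in both pioglitazone groups. That difference was -0.92 ± 0.35 (log2, limma, 95% interval -1.65 to -0.18) and did not pass over all genes (adjusted p = 0.207). The strain difference over the diets was -0.34 ± 0.20 (adjusted p = 0.146).

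Tie1 encodes the partner receptor of Tek. The BL6 levels were 0.35, 0.11, -0.08 and 0.19 on chow, at -0.28, 0.25, 0.17 and 0.02 on HFD, and at -0.52, -0.10, -0.37 and -0.14 with pioglitazone. In BLKS mice it stood at 0.19, 0.08, 0.07 and -0.31 on chow, at -0.28, -0.58, -0.17 and 0.10 on HFD, and at -1.01, -0.16, -0.13 and -0.05 with pioglitazone. Here too the BL6 pioglitazone arrays were all below the BL6 chow arrays, by -0.43 ± 0.19 (log2), a difference that did not pass (limma, adjusted p = 0.279). Over all genes, 4.95% had every BL6 pioglitazone array below every BL6 chow array, against 2 of the 10 members, while 0.279% passed the test in that comparison. The mural list covers the pericytes and smooth muscle cells around the endothelium. Its score in BL6 ran from -0.05 to 0.25 on chow (median 0.21) and from -0.44 to 0.21 with pioglitazone (median -0.25). The ranges overlap, while the median was lower with pioglitazone, the direction of Tek and Tie1. As with Tek and Tie1, none passed in that comparison, with 0 of 13 measured mural genes called. The part of these cells in the Tek and Tie1 values was not tested. The BL6 chow and pioglitazone groups shared no slide, so slide and treatment cannot be told apart there.

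The Tek and Tie1 probes sit in matching stretches of these related receptors. Aligned without gaps, 39 of 57 bases (68.4%) were identical, and the sequences are printed with the identical bases in capitals to show how far the probes differ. The Tek probe lies at mm9 chr4:94540624-94540683 on the plus strand, and the Tie1 probe at mm9 chr4:118144132-118144191 on the minus strand.
Tek probe: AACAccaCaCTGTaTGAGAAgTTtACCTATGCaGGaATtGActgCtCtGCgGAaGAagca
Tie1 probe: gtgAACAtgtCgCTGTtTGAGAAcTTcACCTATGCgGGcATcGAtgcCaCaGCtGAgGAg
With group means removed, Tek followed Tie1 over the 24 arrays with r = 0.76 and Pecam1, whose probe was not aligned with them, with r = 0.92. Whether either probe also reads the other receptor's transcript was not tested. Genes read on 1 array share its islet preparation, so these are descriptions and carry no p.

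Eng, the endoglin co-receptor, and Plvap, the fenestral diaphragm protein, had the smallest strain differences over the diets among the 10 genes. Eng levels lay between 1.53 and 2.12, with group means from 1.74 ± 0.22 with pioglitazone in BL6 to 1.90 ± 0.13 on chow in BLKS. Its strain difference over the diets was 0.08 ± 0.07 (log2, 95% interval -0.06 to 0.21, adjusted p = 0.331). Plvap levels lay between 3.96 and 4.80, with group means from 4.22 ± 0.23 with pioglitazone in BL6 to 4.53 ± 0.20 on HFD in BL6. Its strain difference over the diets was -0.05 ± 0.08 (limma, 95% interval -0.21 to 0.11, adjusted p = 0.594). A second Plvap probe followed the first with r = 0.91, group means left in.

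**Figure D2:**
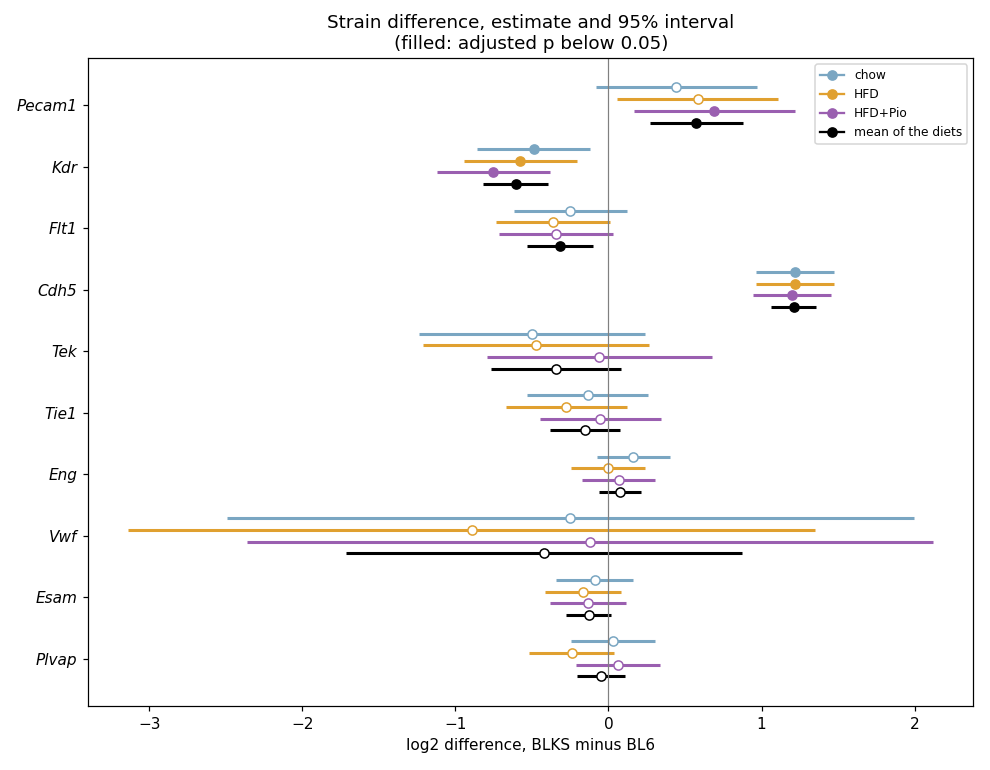
Log2 difference BLKS minus BL6 (x axis) of each endothelial marker (y axis) on each diet and over the diets. Points are limma estimates, lines their 95% intervals, and filled points passed the adjusted p threshold. Cdh5 lies near 1.2 on all 3 diets, Kdr lies below 0 on each, and the interval of Vwf is the widest.

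Because BLKS chow and BL6 HFD with pioglitazone shared slides 2 and 4, the strains could be set side by side on a slide there, though on different diets. With slide as a block, Cdh5 was 1.37 ± 0.12 (log2) higher in the BLKS arrays (adjusted p = 3.79e-08), Pecam1 0.87 ± 0.25 higher (adjusted p = 0.00779), and Kdr was lower, with -0.70 ± 0.17 (adjusted p = 0.00302). The Flt1 difference was -0.14 ± 0.17 (adjusted p = 0.537). In this comparison 43.5% of all genes passed. On slide 2, 3 BLKS arrays lay above 3 BL6 arrays for Cdh5 and Pecam1 and below them for Kdr. The single arrays of slide 4 differed in the same directions for these genes. Eng was also separated on slide 2, by 0.23, yet it did not pass with slide as a block (limma, adjusted p = 0.227). Between the single arrays of slide 4 its difference was -0.04. The share of all genes separated in this way on slide 2 was not counted. For Flt1 the slides disagreed, with a difference of 0.10 on slide 2 and -0.86 between the single arrays of slide 4.

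The high-fat diet left no called difference in these genes. In BL6, HFD minus chow ranged from -0.24 (Tek) to 0.36 (Vwf) with a median of 0.01, and 0.0435% of all genes passed. In BLKS all 10 differences were below 0, from -0.29 (Vwf) to -0.01, with a median of -0.07, and the smallest adjusted p was 0.779, where 0.0783% of all genes passed. The most precise of them, Eng, had 95% intervals of -0.12 to 0.36 in BL6 and -0.29 to 0.19 in BLKS. At an unadjusted p under 0.05, 0 of the 10 genes passed in either strain, against 5.46% of all genes in BL6 and 9.2% in BLKS. The difference between the strains in their response to HFD was also called for 0 of 10, and for 0% of all genes, with no member under an unadjusted p of 0.05, against 1946 of all genes.

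Pioglitazone on HFD likewise gave 0 called members in each strain. In BL6 the differences ranged from -0.67 (Tek) to 0.66 (Vwf) with a median of -0.13, where 0.192% of all genes passed. Plvap, with -0.31 ± 0.13 (adjusted p = 0.414), was the 1 member under an unadjusted p of 0.05, against 10.4% of all genes, and its groups overlapped. In BLKS the differences ranged from -0.26 (Tek) to 1.43 (Vwf) with a median of -0.05, where 0.00435% of all genes passed and 0 members were under an unadjusted p of 0.05, against 4.18% of all genes. Against chow, the HFD with pioglitazone gave a median of -0.12 in BL6 and -0.13 in BLKS, where 0.0348% of all genes passed. These comparisons share the pioglitazone arrays with those against HFD. The strain difference in the response to pioglitazone was called for 0 of 10 members and for 0.00871% of all genes, and the smallest adjusted p among the members was 0.77.

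**Figure D3:**
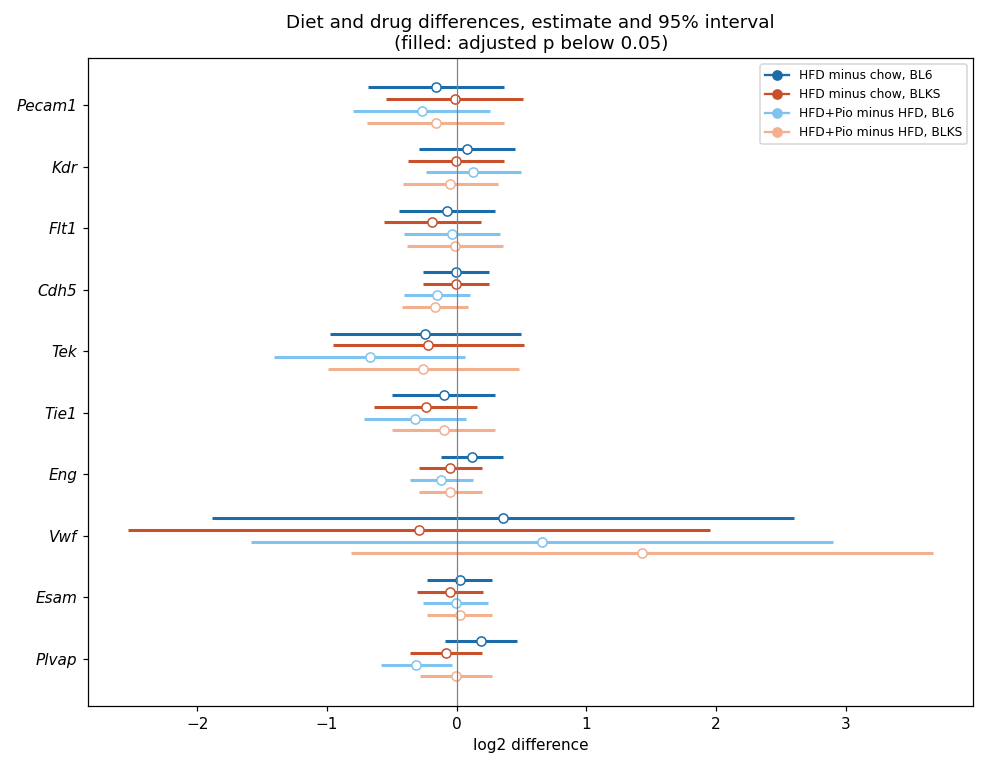
Log2 difference of each endothelial marker (y axis) between diets within a strain (x axis): HFD minus chow and HFD with pioglitazone minus HFD. Points are limma estimates, lines their 95% intervals, and no point is filled because none passed the adjusted p threshold.

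Other genes of the endothelium gave the diet results a comparison. A list of 15 genes of endothelial fatty acid uptake and transport, all measured, had 3 called as higher with pioglitazone on HFD in BL6 and 0 as lower. Of all genes, 0.192% passed in that comparison. Cd36, a fatty acid translocase, rose by 2.45 ± 0.31 (log2, limma, adjusted p = 0.000809), Fabp4, a fatty acid binding protein, by 1.96 ± 0.23 (adjusted p = 0.000297) while Rbp7, which carries retinol in capillary and adipose endothelium, rose by 1.40 ± 0.19 (adjusted p = 0.00148). In BLKS, where 0.00435% of all genes passed, Rbp7 rose by 1.48 ± 0.19 (limma, adjusted p = 0.00364). There Fabp4 (1.09 ± 0.23, adjusted p = 0.089) and Cd36 (0.86 ± 0.31, adjusted p = 0.828) did not pass. The difference between strains in these responses did not pass for Cd36 (adjusted p = 0.265) or Fabp4 (adjusted p = 0.504). Fabp4 and Cd36 are also made by adipocytes and macrophages, of which the macrophage score in BL6 ran from 0.23 to 0.94 on HFD and from 0.30 to 1.90 with pioglitazone. Of 7 adipocyte genes only Retn, the resistin gene, had a kept probe, one well above background on at least 4 arrays. Its score in BL6 ran from -1.43 to 0.77 on HFD and from -1.20 to 2.04 with pioglitazone, and it did not pass (limma, adjusted p = 0.898). The part of those cells was not tested. In BL6 the HFD groups with and without pioglitazone shared no slide, so slide and drug cannot be told apart there.

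Other genes of the endothelium also differed between the strains over the diets, where 30.1% of all genes were higher in BLKS and 34.5% lower. Of 37 measured among 38 other endothelial genes, 16 were higher in BLKS and 16 lower, with a median of -0.17. Those of smallest p were Sox7, a transcription factor of vessel growth, higher by 2.43 ± 0.10, Tmem204, a membrane protein of endothelial junctions, lower with -1.89 ± 0.09, Rasip1, needed for vessel lumens, higher by 1.77 ± 0.09, and Cldn5, the endothelial claudin, higher by 3.23 ± 0.19 (limma, adjusted p at most 6.68e-12). Of 26 measured genes for VEGF, angiopoietin and Notch ligands and receptors, 8 were higher and 8 lower, shares close to those of all genes. In that list Acvrl1, a TGF-beta family receptor that works with Eng, had -1.19 ± 0.07, Pgf, the placental growth factor that binds Flt1, had -1.55 ± 0.09, Nrp2, a VEGF co-receptor, had 1.45 ± 0.11, and Angpt2, a ligand of Tek, had 1.28 ± 0.11 (adjusted p at most 1.93e-09).

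Lists for the cells and matrix around the endothelium are read against the same background, 64.7% of all genes passing. Of 13 measured mural genes, 3 were higher and 5 lower in BLKS, together near that share, led by Higd1b, a pericyte gene, with -1.26 ± 0.07 (adjusted p = 1.56e-12). Of 10 measured basement membrane genes, 5 were higher and 4 lower, with Lamc1, a laminin chain, higher by 0.77 ± 0.06 (adjusted p = 3.68e-10). Of the 15 genes of fatty acid handling, 0 were higher and 5 lower, with Rbp7 at -2.51 ± 0.11 (adjusted p = 4.4e-14) and Slc27a3, an acyl-CoA synthetase of the fatty acid transporter family, at -1.73 ± 0.11 (adjusted p = 2.99e-11). Red cell genes were lower in BLKS for 6 of 6 and macrophage genes for 11 of 14, and duct cell genes were higher for 6 of 9. Lymphocyte genes were lower for 1 of 14 and acinar genes higher for 1 and lower for 1 of 18. Of 6 measured platelet genes, 2 were higher and 2 lower, near the share of all genes. The part of these cells in the differences of the 10 markers was not tested, beyond the fits with acinar or lymphocyte score as a covariate.

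**Figure D4:**
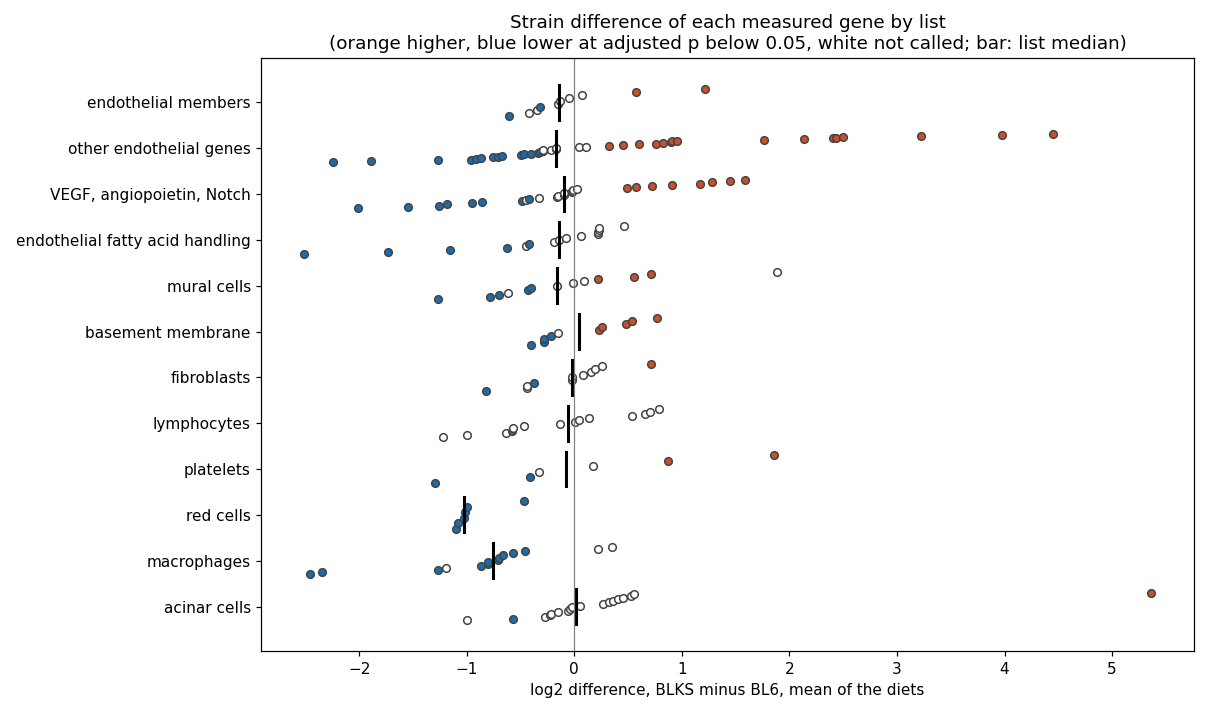
Log2 difference BLKS minus BL6 over the diets (x axis) of each measured gene in 12 lists (y axis). Orange points were higher and blue points lower at the adjusted p threshold, white points did not pass, and black bars are list medians. The 10 endothelial markers span -0.61 to 1.21 and the 37 other endothelial genes -2.25 to 4.45. A range widens with the number of genes, so these spans are not a like comparison.

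Vwf varied far more between mice than the other markers. In BL6 mice it stood at -0.16, -0.70, -1.16 and -0.29 on chow, at -1.36, 0.04, -0.38 and 0.82 on HFD, and at -0.57, 0.64, 0.73 and 0.95 with pioglitazone. In BLKS mice it stood at -1.33, 2.87, -2.70 and -2.13 on chow, at 0.96, -1.47, -3.08 and -0.87 on HFD, and at -1.61, -1.52, 2.18 and 2.22 with pioglitazone. The SD within groups was 1.60, at the 98.4th percentile of all genes, and values at both ends of the range occurred within single BLKS groups. The strain difference over the diets was -0.42 ± 0.62 (log2, 95% interval -1.72 to 0.87, adjusted p = 0.571), so a difference of either sign could not be told from the spread between mice. A second Vwf probe, well above background on 17 arrays, followed the first with r = 0.40, group means left in. The other within-group SDs ran from 0.16 for Eng to 0.52 for Tek, against a median of 0.212 over all genes.

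Vwf and the other markers differed in how closely they followed the mural and basement membrane lists. With group means removed, Vwf followed the mural list with r = 0.78 and the basement membrane list with r = 0.10, over 24 arrays. The mean of the 9 markers without Vwf followed the mural list with r = 0.58 and the basement membrane list with r = 0.80. Both followed the list of other endothelial genes, Vwf with r = 0.71 and the mean of the 9 markers with r = 0.66. Vwf followed that mean with r = 0.53. The 3 arrays highest in Vwf (mouse 2 of BLKS chow and mice 4 and 3 of BLKS with pioglitazone) had mural scores of 0.64, 0.59 and 0.77, while the highest of the other 21 arrays was mouse 2 of BL6 on HFD with 0.53. Platelets also hold Vwf, and Vwf followed the platelet list with r = 0.05. Mouse 4 of BL6 on HFD had a platelet score of 2.41, against -0.66 to 0.34 on the other arrays. Its Vwf level, 0.82, was the highest of its group. The part of platelets in the Vwf values was not tested.

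**Figure D5:**
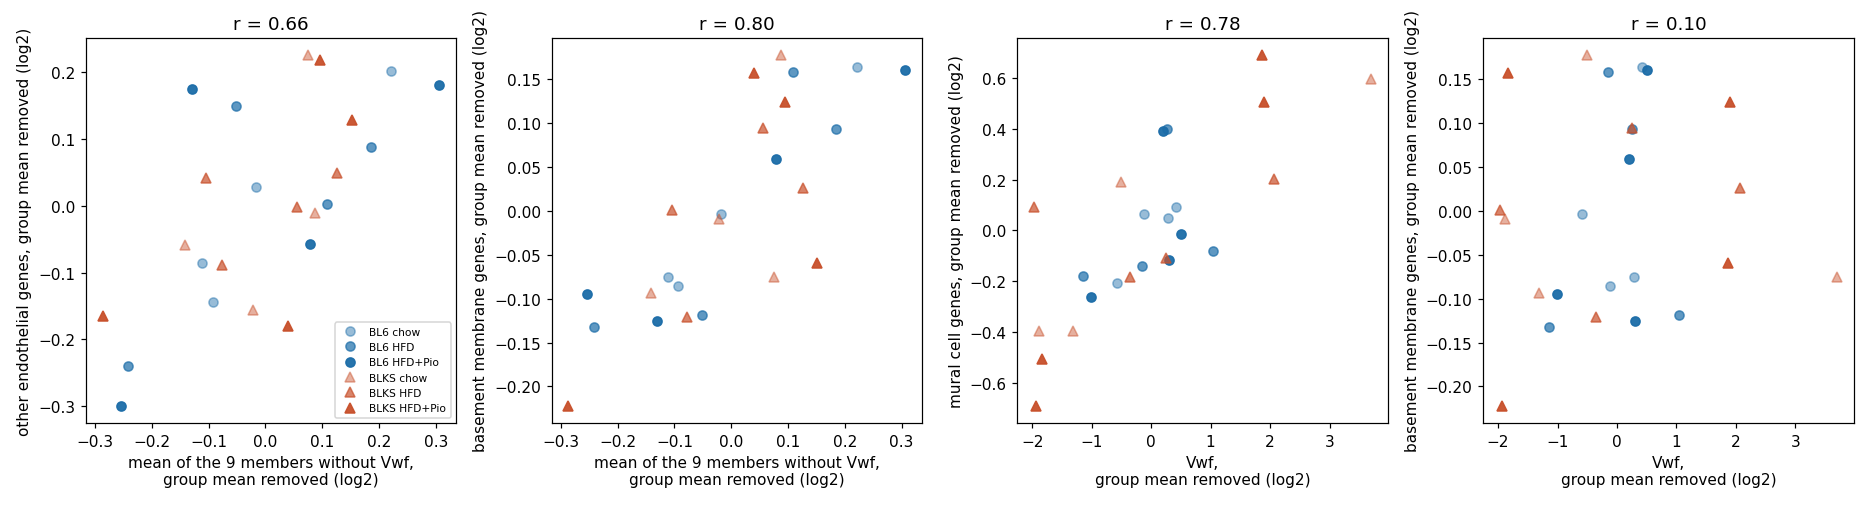
Within-group deviations on 24 arrays (circles BL6, triangles BLKS, darker for HFD and HFD with pioglitazone). The left panels plot the mean of 9 markers without Vwf against other endothelial genes (r = 0.66) and basement membrane genes (r = 0.80), and the right panels plot Vwf against mural genes (r = 0.78) and basement membrane genes (r = 0.10), all in log2 units.

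The genes whose pattern over the arrays was most like the mean of the 10 markers, with group means removed, were Pkn3 (r = 0.88), Selp (0.86), Ptrf (0.84), Gpr4 (0.83), Cd34 (0.82), Tagln (0.82), Adcy4 (0.81) and Fbln5 (0.80). That mean itself followed Vwf with r = 0.88, since Vwf had the widest spread. Selp, which encodes P-selectin of endothelial granules and platelets, and Tagln, a smooth muscle gene, followed Vwf alone with r = 0.91 and 0.92 and the 9 other markers with r = 0.58 and 0.50. Without Vwf, a choice made after seeing these values, the most alike genes were Ptrf (0.90), which encodes a caveolar coat protein, Cd34 (0.90), a sialomucin of capillary endothelium, Tmem204 (0.88), Emcn (0.88), Rasip1 (0.85), Adamts2 (0.83), Mmrn2 (0.82) and Itga1 (0.82).

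Among the markers themselves, Plvap (r = 0.82), Cdh5 (0.77), Eng (0.76) and Tek (0.75) followed the mean of the other members without Vwf most closely, and Flt1 (0.42) and the brighter Kdr probe (-0.39) least. The closest pairs were Pecam1 with Tek (0.92), Eng with Plvap (0.87) and Flt1 with Esam (0.81). Mouse 1 of BL6 on HFD with pioglitazone was the lowest of all 24 arrays for Pecam1, Tek and Cdh5 and the highest for the brighter Kdr probe, and it also had the lowest 75th percentile, 217.6. Mouse 1 of BLKS on that treatment was the lowest for Tie1 and the next lowest for Tek, with a lymphocyte score of 2.11. The part of signal strength and of lymphocytes in these values was not tested.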

How the data were processed

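Whole-islet RNA of 24 mice was labelled with Cy3 per the labels' protocols. Per the file headers, Agilent Feature Extraction 10.7.3.1 gave each spot a background-subtracted, detrended intensity, deposited without normalization between arrays, beside mean and background intensities, which 1 alternative used. As deposited by the authors, the value table holds a linear ratio: checked against the spots, each value is processed intensity divided by its array's median. Probe coordinates are on mm9, and exon or UTR positions were not analysed here. Of the value columns, 0 were unmapped to a sample.

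Spots flagged as outliers were dropped, which removed 55 of 55681 probes, and no spot was saturated. Log2 intensities were averaged per probe and set relative to the array's 75th percentile. Probes well above background on at least 4 arrays were kept (32759), and the brightest kept probe stood for each of 22975 gene names. With limma 3.58.1 (R 4.3.3, data.table version 1.17.8) group means over the 24 arrays gave 12 contrasts, in a fit checked on simulated data. Pearson correlations used values with group means removed, except those between probes of 1 gene, where group means were left in. Alternatives changed the background correction and scaling (normexp with offset 50 before quantile scaling, quantile scaling without it, or the value table), the filter (none, or detection on every array), the probes (their mean per gene), the model (slide as random effect or fixed term, mouse number as block, acinar or lymphocyte score as covariate) and the arrays (those of the compared groups, or all but 1 mouse). Leaving out the 7 arrays of high lymphocyte score was chosen after seeing the data.

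All 10 members are named. From each of the 16 other lists up to 4 called genes of smallest p were eligible, and the most alike genes were the 8 of highest r, without clone, predicted and accession names. In the fatty acid list Fabp4 and Cd36 in BLKS were named as well, to set the strains side by side. The members and lists were chosen with earlier results of these data known. By the titles, mice sharing a number belong to different groups and are different animals. The mean correlation of their deviations, which cannot show identity, was 0.0058 over 60 pairs, against 0.0088 over 180 pairs with other numbers.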

Additional observations from a re-analysis of the deposited data

Results flagged for a closer look

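In 60 sets of 4 arrays (10 genes in 6 groups), 6 had 1 array whose gap to the nearest other array exceeded Dixon's 95% critical share of the group's range. For independent sets chance gives about 1 in 20. These sets are not independent, because the 10 genes share the same arrays, and every flag fell on a mouse 1. Mouse 1 of BL6 chow was the highest of its group for Pecam1 (-0.28, the others -0.69 to -0.63), Tek (-1.25, the others -1.78 to -1.75) and Esam (1.81, the others 1.39 to 1.45). Mouse 1 of BL6 on HFD with pioglitazone was low for Pecam1 (-2.02, the others -0.80 to -0.59). Mouse 1 of BLKS on HFD with pioglitazone was low for Tie1 (-1.01, the others -0.16 to -0.05). Mouse 1 of BLKS chow was high for Esam (1.57, the others 1.37 to 1.38). No test of the difference between strains in the response to HFD or to pioglitazone passed for a member.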

How the results depend on the processing

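Cdh5, Pecam1, Kdr and Flt1 kept their direction and passed over the diets in all 36 alternatives: Cdh5 between 1.13 and 1.27, Pecam1 between 0.45 and 0.68, Kdr between -0.70 and -0.48, Flt1 between -0.43 and -0.25 (highest adjusted p = 0.0433). Esam passed over the diets in 3 of 36 alternatives (lowest adjusted p = 0.0132) and on HFD in 1 of 20, and Tek passed over the diets in 1 of 36 (lowest adjusted p = 0.028) and on chow in 1 of 20. Flt1 passed on chow, HFD and HFD with pioglitazone in 1, 3 and 5 of 20, and Plvap on HFD in 2 of 20. No member passed in a diet comparison or a strain difference in response under any alternative run. On chow, 2 members passed, against 1 with no filter, 4 with only the groups compared, and 1 to 2 with a mouse left out. On HFD, 2 passed, against 5 with normexp and quantile normalization, 4 with quantile normalization and 2 to 4 with a mouse left out. Without the arrays of high lymphocyte score, an alternative chosen after seeing the data, 1 passed on chow and 1 on HFD, where Kdr had -0.44 (adjusted p = 0.103) and -0.46 (adjusted p = 0.0777). Pecam1 with pioglitazone lost its call with only the groups compared (0.69, adjusted p = 0.141). Tek and Tie1 in BL6 with pioglitazone against chow passed in none of 20 alternatives (adjusted p from 0.149 to 0.42 and from 0.192 to 0.513).

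With the mouse number as a replicate block, 4 members passed over the diets, 2 on chow, 3 on HFD, 3 with pioglitazone and 0 in each diet or response comparison. The call it added was Pecam1 on HFD (0.58, adjusted p = 0.0487), and no other member's call changed. The block raised the calls among all genes for pioglitazone in BLKS from 1 to 23 and lowered those for HFD in BLKS from 18 to 8, and 6 of 24 arrays correlated best with an array of their own number. Over all alternatives the calls among all genes ran from 0 to 18 for HFD in BL6 (10 in the fit reported), 0 to 67 in BLKS (18), 0 to 68 for pioglitazone in BL6 (44), 0 to 52 in BLKS (1), 3 to 272 for pioglitazone against chow in BL6 (64), 0 to 32 in BLKS (8), 0 to 11 for the strain difference in HFD response (0, with 1946 at an unadjusted p under 0.05) and 0 to 22 in pioglitazone response (2). The slide as a random block gave a correlation of -0.012. Slide as a fixed block could be fitted for HFD against chow in BL6 and pioglitazone on HFD in BLKS, and gave no value for the other comparisons, whose groups share no slide or rest on such groups. Over the gene lists, the basement membrane median changed sign with normexp (-0.01 against 0.04), and mural calls fell from 3 higher to 1. Group sizes of 4 leave 95% intervals of the diet differences near ±0.25 (log2) for the most precise members and ±2.2 for Vwf.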
